A study of Bos taurus with 14 samples.

Results

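Mammary tissue taken at day -9 relative to calving was compared with tissue taken at day -24, in cows kept under long days and cows kept under short days jointly. The question was which differences between the 2 days of the dry period ran the same way under both light treatments. All 14 of the 14 arrays of the series entered the comparison: 8 from day -9 (4 long day, 4 short day) and 6 from day -24 (3 long day, 3 short day). Every group came from Holstein cows that were no longer milked, dry-off having been set about 60 days ahead of the predicted calving, and light treatment was allotted at random. Long day (LD) meant 16 h of light and 8 h of dark, and short day (SD) meant 8 h of light and 16 h of dark, over the whole dry period. Each biopsy is a bulk sample that holds every cell type of the gland, and the 24016 probe sets other than the array's own controls were compared. Of these, 12562 (52.3%) had an estimated difference of the same sign in LD and in SD, and 11454 had opposite signs. No probe set passed an adjusted p of 0.05 (limma), so these are counts of signs and not of called differences. The share of the same sign depended on the arrays used. It was 46.1% without SD day -24 replicate 2. It was 63.3% without both LD day -9 replicate 4 and SD day -24 replicate 3.

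A cow that is dried off while pregnant passes through regression of the secretory epithelium and then through renewal of that epithelium before the next lactation. In the last weeks before calving the alveolar cells take up the synthesis of milk proteins, lactose and fat again, and the gland collects immunoglobulins and antimicrobial proteins in colostrum. Falling progesterone and rising prolactin, with glucocorticoids, are the classical endocrine setting of this step.

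The values are log2 expression levels, 1 per probe set and array, summarised by the authors with robust multi-array average (RMA). A difference of 1 is therefore a doubling, and differences below are day -9 minus day -24 with photoperiod as a block. Array medians lay between 6.43 and 6.61, and pairs of arrays correlated between 0.950 and 0.992 over probe sets, which are not independent. The milk genes bore out the tissue label: the beta-lactoglobulin gene PAEP averaged 13.67 at day -9 and 13.70 at day -24, close to the highest value on any array (13.88). The fat cell hormone gene ADIPOQ averaged 3.65 at day -9 and 3.56 at day -24, against a median of 6.56 over all probe sets. As a measure of RNA quality, the mean 3′ minus 5′ value of 6 control transcripts had a lowest, median and highest value of 0.74, 0.84 and 1.07 at day -9, against 0.78, 0.99 and 1.18 at day -24. Its mean difference was -0.15 (exact permutation of days within photoperiod, two-sided p = 0.0498, adjusted p = 0.174 over 7 controls). Nothing in the labels tells if 1 cow gave biopsies on both days or if replicates are separate cows, and p-values therefore cover only the spread between these samples, which may be technical.

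No probe set passed an adjusted p of 0.05 in limma (percent called 0 in either direction), and the smallest adjusted p was 0.109. At an unadjusted p under 0.05 there were 1921 probe sets (8%), where a uniform spread of p-values would give 1201. Of these, 895 (3.73%) were higher and 1026 (4.27%) lower at day -9, and with each array centred on its median the split was 481 higher and 1564 lower. The median difference was 0.00, with 12063 probe sets (50.2%) above 0, and 97.9% of probe sets lay within 0.5 of 0. The median standard error was 0.13, so the number of arrays limits the precision of every value here. None of the genes described below passed the threshold unless a setting is named, and their order and size are given as description.

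The 2 photoperiods were also fitted apart. At an unadjusted p under 0.05, LD gave 1795 probe sets (7.47%) and SD gave 1096 (4.56%), and no probe set passed the adjusted threshold in either (smallest adjusted p 0.478 in LD and 0.970 in SD, limma). Over all probe sets the LD and SD differences correlated weakly (Pearson r 0.08, Spearman rho 0.07), as a description over probe sets that share arrays. Of the 12562 probe sets with 1 sign, 5946 (24.8%) were higher and 6616 (27.5%) were lower in both photoperiods. Among the 1795 LD probe sets, 1172 (65.3%) had the same sign in SD, and among the 1096 SD probe sets, 642 (58.6%) had the same sign in LD. Both lists shared 119 probe sets, which is 6.63% of the LD list and 10.9% of the SD list, and 100 of these had the same sign, 33 higher and 67 lower at day -9. The test of the difference between the photoperiods called 0 probe sets at an adjusted p of 0.05 (limma, smallest adjusted p 0.900) and 997 (4.15%) at an unadjusted p under 0.05.

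**Figure D1:**
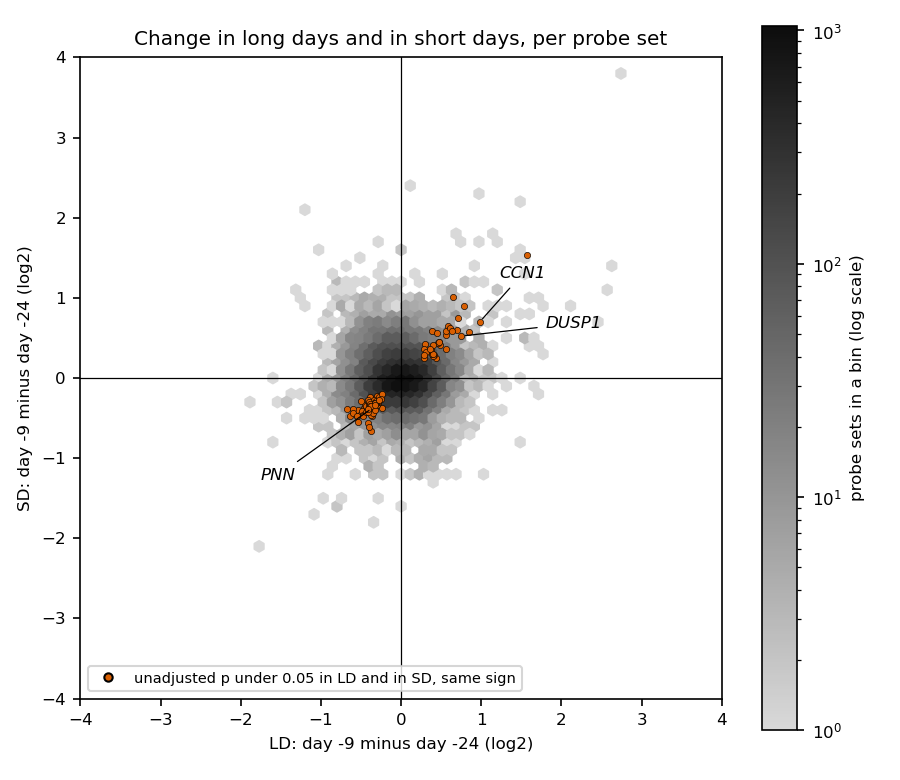
Each grey hexagon counts probe sets by their day -9 minus day -24 difference (log2) in LD (horizontal axis) and in SD (vertical axis), on a log grey scale, and orange points are the 100 probe sets with an unadjusted p under 0.05 in both and the same sign. The cloud is nearly round (r 0.08), CCN1 and DUSP1 lie at the upper right and PNN at the lower left.

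How far the photoperiods matched rested on a few arrays. A pair of arrays, LD day -9 replicate 4 together with SD day -24 replicate 3, lay at least 0.7 below every other array on 280 probe sets, against 11 for the next pair. These 2 arrays sit on opposite days of opposite photoperiods, and 276 of the 280 probe sets had an LD difference below 0 while all 280 had an SD difference above 0. Choosing probe sets by low values on these 2 arrays itself favours those signs. Without both arrays r was 0.36 and 63.3% of probe sets had the same sign. Without SD day -24 replicate 3 alone r was 0.34 (62.6%), without LD day -9 replicate 4 it was 0.25, and without SD day -24 replicate 2 it was -0.09 (46.1%). What sets the pair apart was not tested.

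CCN1, which encodes a secreted matrix-associated protein of wound repair and vessel growth, had the smallest p of all named genes. It read 9.32, 9.12, 8.88 and 8.98 in LD day -9 arrays and 9.21, 8.76, 8.71 and 8.81 in SD day -9 arrays, against 8.02, 7.87 and 8.39 in LD day -24 arrays and 8.06, 8.35 and 8.11 in SD day -24 arrays. All 8 day -9 arrays lay above all 6 day -24 arrays. The means were 8.97 ± 0.22 at day -9 (SD, n = 8) and 8.13 ± 0.20 at day -24 (SD, n = 6), a difference of 0.84 (SE 0.12, 95% interval 0.59 to 1.09, 1.79-fold), with 0.98 in LD and 0.70 in SD. Its adjusted p was 0.109 in limma. It passed only without the photoperiod block (adjusted p 0.0443) and when probe sets with a mean under 7 were left out (adjusted p 0.0227), with adjusted p between 0.0227 and 0.691 over the alternatives. CCN2, its relative in the same family of matrix-associated proteins, was higher by 0.38, and by nearly the same amount in each photoperiod (0.38 in LD, 0.37 in SD).

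DUSP1, a phosphatase that switches off MAP kinases and is induced by stress and glucocorticoids, also had no overlap between the days. It read 9.94, 9.52, 9.32 and 9.51 in LD and 9.81, 9.42, 9.19 and 9.47 in SD at day -9, against 8.68, 8.76 and 9.02 in LD and 8.87, 9.11 and 8.86 in SD at day -24. No day -9 array fell as low as the highest day -24 array. The difference was 0.64 (SE 0.12, 1.56-fold), with 0.75 in LD and 0.52 in SD and an adjusted p of 0.578 (limma). DUSP1 and CCN1 are both immediate early genes, known for fast and short-lived induction. The class had no common direction. Of 26 stress and immediate early genes, DUSP1 but not CCN1 among them, 14 were above and 12 below 0 (53.8% above 0 over all genes). Their median was 0.06 (-0.04 in LD, 0.11 in SD), with 10 higher and 8 lower in both photoperiods. At an unadjusted p under 0.05, 1 was higher and 1 lower.

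**Figure D2:**
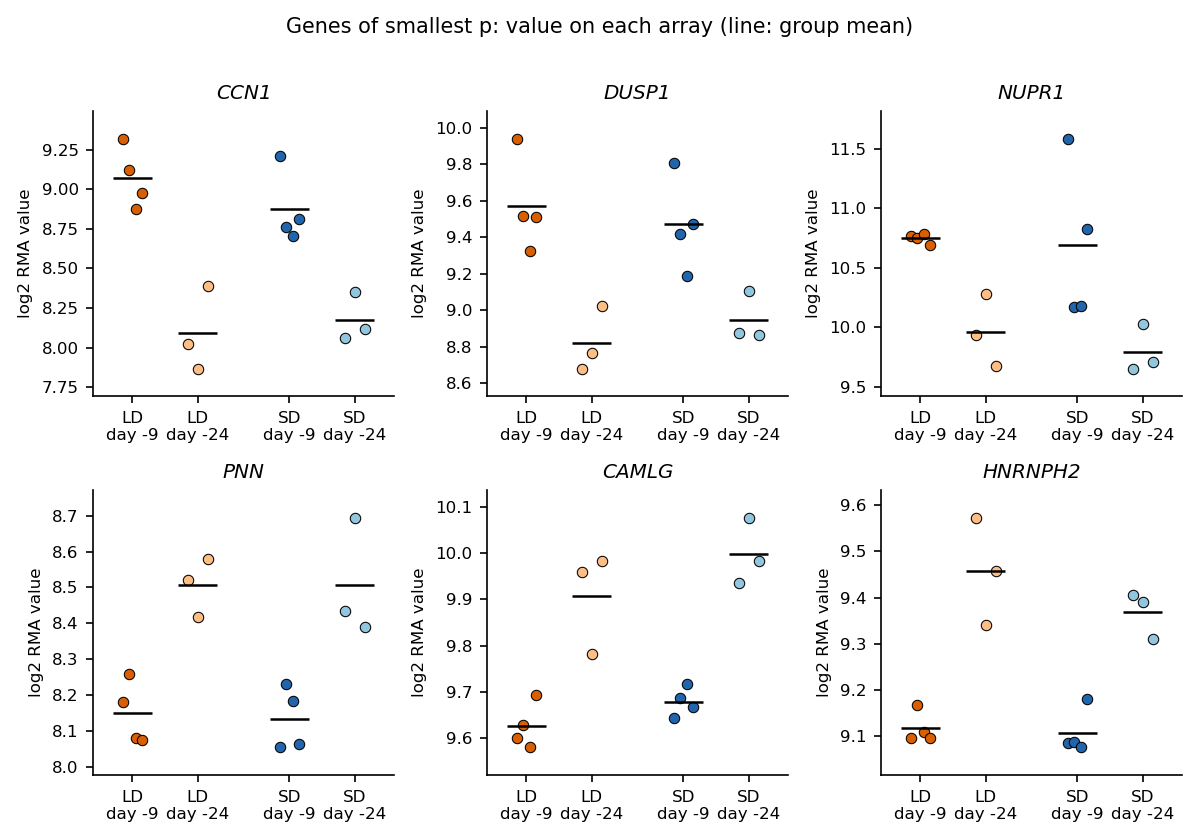
Value on each array (log2 RMA) in LD day -9, LD day -24, SD day -9 and SD day -24 for genes of smallest p, with a line at each group mean. CCN1 and DUSP1 lie above their day -24 arrays on all 8 day -9 arrays, and PNN, CAMLG and HNRNPH2 lie below on all 8.

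Probe sets without overlap between the days were few: 14 were higher (0.0583%, 9 with a symbol) and 55 lower (0.229%, 34 with a symbol) at day -9. Of the other 13 of the 15 higher genes of smallest p, SLC7A6OS (0.34) was the only one without overlap. NUPR1, a stress-induced chromatin protein, averaged 10.72 ± 0.44 at day -9 and 9.88 ± 0.25 at day -24, a difference of 0.84 (0.79 in LD, 0.89 in SD), and SD day -9 replicate 1 held its highest value, 11.59. FBXO32, the ubiquitin ligase subunit best known from muscle wasting, was higher by 0.49, at 8.62 ± 0.20 against 8.13 ± 0.21. PLVAP, which forms the diaphragms of fenestrated capillaries, was higher by 0.62 on 1 probe set and by 0.52 on the other. The others included RAB35, a small GTPase of endosome recycling (0.71), VPS39, a subunit of the lysosomal tethering complex HOPS (0.46), and CLN3, a lysosomal membrane protein (0.58). GPR108 differed by 0.83, ASB11 by 0.50, the splicing kinase CLK3 by 0.46, the deubiquitinase USP4 by 0.40, the anaphase-promoting complex subunit ANAPC5 by 0.35, and the caspase inhibitor XIAP by 0.29 at a low level (3.41 at day -9 and 3.12 at day -24). Their adjusted p lay between 0.583 and 0.586 in limma.

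The lower genes of smallest p had differences between -0.48 and -0.27, a choice that favours genes with little spread between arrays. PNN, a nuclear speckle protein of RNA splicing, ranged from 8.05 to 8.26 at day -9, against 8.39 to 8.69 at day -24. The difference was -0.37 (SE 0.07), with -0.36 in LD and -0.37 in SD. HNRNPH2, a splicing regulator that binds G-rich RNA, averaged 9.11 ± 0.04 at day -9 and 9.41 ± 0.09 at day -24, a difference of -0.30. DNAJC10, a disulfide reductase of the endoplasmic reticulum (ER), was lower by 0.32, and 1 of its 2 other probe sets had the same sign. CAMLG, which helps insert tail-anchored proteins into the ER membrane, averaged 9.65 ± 0.05 and 9.95 ± 0.10, a difference of -0.30, and its other probe set had the opposite sign. CCDC47, an ER membrane protein of calcium handling, differed by -0.33. PNN, HNRNPH2, CAMLG, DNAJC10 and CCDC47 were each lower on every day -9 array than on any day -24 array.

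For several of the other lower genes the probe sets of the gene disagreed. RPL19, a ribosomal protein, was lower by 0.48 on a probe set whose companion had the opposite sign. All other probe sets of the transcription factor subunit TAF13 (-0.27), the Golgi tether COG6 (-0.40), PPRC1 (-0.39) and LOC613444 (-0.41) had the opposite sign. For USP18 (-0.45), an enzyme that removes the interferon-induced modifier ISG15, 2 of 3 others had the same sign, and for the growth factor FGF1 (-0.35) 6 of 11. COL26A1 (-0.42), the elastase CELA1 (-0.47) and the prokineticin receptor PROKR1 (-0.32) completed the 15, and CELA1, PROKR1, PPRC1 and FGF1 averaged under 5 on both days.

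Gene lists for pathways and cell types gave a broader view, each gene by its probe set of highest mean. Over all 9155 genes, 4923 (53.8%) had a difference above 0 and 728 (7.95%) reached an unadjusted p under 0.05, 367 (4.01%) higher and 361 (3.94%) lower. In both photoperiods 2472 (27%) were higher and 2275 (24.8%) lower, which makes 4747 (51.9%) with 1 sign, and days did not overlap for 5 higher (0.0546%) and 28 lower (0.306%). With the photoperiods fitted apart, 5483 of the 9155 genes were above 0 in LD (median 0.06) and 3869 in SD (median -0.03). Where a list is described below its counts stand beside these shares, and its LD or SD counts beside those of the same photoperiod. In bulk tissue fewer cells of a type and less RNA per cell cannot be told apart.

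**Figure D3:**
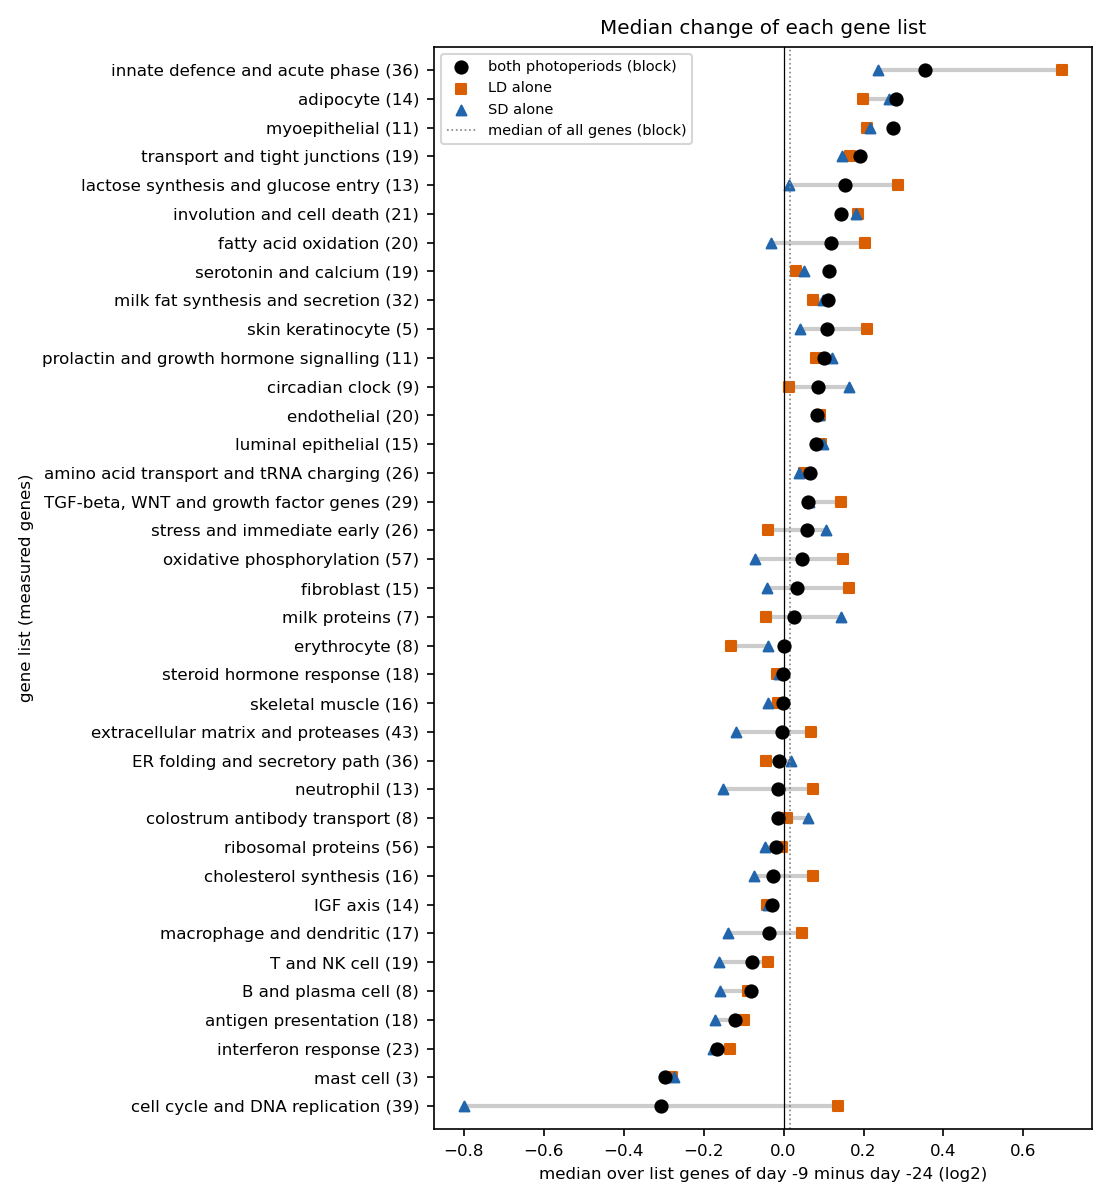
Median day -9 minus day -24 difference (log2) of each gene list, with points for both photoperiods together, LD and SD. Innate defence has the highest median together (0.35), cell cycle and DNA replication the lowest (-0.31), and for cell cycle the LD point (0.14) and the SD point (-0.80) lie on opposite sides of 0.

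Innate defence and acute phase genes stood highest. Of 36 measured, 30 were above 0 and 22 were higher in both photoperiods, and at an unadjusted p under 0.05 there were 8 higher and 3 lower. The list median was 0.35, with 0.70 in LD and 0.24 in SD, and the SD value rested on 1 array: without SD day -9 replicate 1 the SD median was -0.11, with 13 of 36 above 0. Array by array, the mean of the list relative to all arrays was 1.14 in LD day -9 replicate 1, 0.95 in SD day -9 replicate 1, 0.73 in LD day -9 replicate 4 and 0.22 in LD day -9 replicate 2, while the other day -9 arrays lay between -0.74 and -0.05 and day -24 arrays between -0.65 and 0.13. So 4 of 8 day -9 arrays stood above every day -24 array. Without that array the median over both photoperiods was 0.30, with 28 above 0 and 5 higher and 4 lower at an unadjusted p under 0.05. With the mean of the luminal markers as a covariate it was 0.13.

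LPO encodes lactoperoxidase, an antibacterial enzyme of milk, and had the largest difference of any probe set. It read 8.66, 3.47, 8.20 and 6.70 in LD and 10.78, 5.17, 7.90 and 5.93 in SD at day -9, against 4.40, 3.32 and 4.35 in LD and 3.86, 3.17 and 3.80 in SD at day -24. On 7 of the 8 day -9 arrays LPO exceeded every day -24 array, and LD day -9 replicate 2 stayed within the day -24 range. The means were 7.10 ± 2.27 and 3.82 ± 0.51, a difference of 3.28 (SE 0.88, 95% interval 1.40 to 5.17, adjusted p 0.586 in limma), with 2.74 in LD and 3.83 in SD. Without SD day -9 replicate 1, its highest array, the difference was 2.73, and 2.72 in SD alone.

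LBP, the plasma and milk protein that presents bacterial lipopolysaccharide, read 10.90, 8.80, 10.27 and 10.06 in LD and 11.38, 8.37, 8.87 and 8.68 in SD at day -9. At day -24 it read 8.28, 9.39 and 8.05 in LD and 7.43, 7.64 and 8.50 in SD. The days overlapped, and the difference was 1.45 (SE 0.45), or 1.13 without SD day -9 replicate 1, where SD alone gave 0.78. The chemokine gene GRO1 averaged 7.84 at day -9 and 6.38 at day -24, a difference of 1.46, or 1.09 without SD day -9 replicate 1. Its SD difference was 1.33, or 0.52 without that array. LAP, a beta-defensin of bovine epithelium, was higher by 1.55, with 2.44 in LD and 0.67 in SD, and the SD difference was -0.16 without SD day -9 replicate 1. Ceruloplasmin (CP) averaged 8.49 at day -9 and 7.39 at day -24, and complement factor B (CFB) differed by 1.04, and both had their highest SD day -9 value on replicate 1. Without it their SD differences were 0.06 for CP and -0.16 for CFB. IL6 differed by 0.64 and the lipopolysaccharide receptor TLR4 by 0.30. In SD, IL6 was at a low level (3.09 at day -24) and differed by 0.33, or by 0.10 without SD day -9 replicate 1.

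Not all defence genes ran that way. The cathelicidins CATHL1 and CATHL2, antimicrobial peptides stored in neutrophil granules, were lower by 1.90 and 1.22, and the beta-defensin DEFB10 by 0.74 (by 0.46 without SD day -24 replicate 1). CATHL1 averaged 4.71 ± 1.50 at day -9 and 6.61 ± 1.58 at day -24, with ranges of 2.95 to 6.93 and 3.94 to 8.15 that overlap. The 13 neutrophil markers had a median of -0.01, with 6 above and 7 below 0. Lactoferrin (LTF), the iron-binding protein of dry secretion, was already high and averaged 12.73 at day -9 and 12.22 at day -24, a difference of 0.51 (unadjusted p 0.0664 in limma, adjusted p 0.641), or 0.33 without LD day -24 replicate 1.

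**Figure D4:**
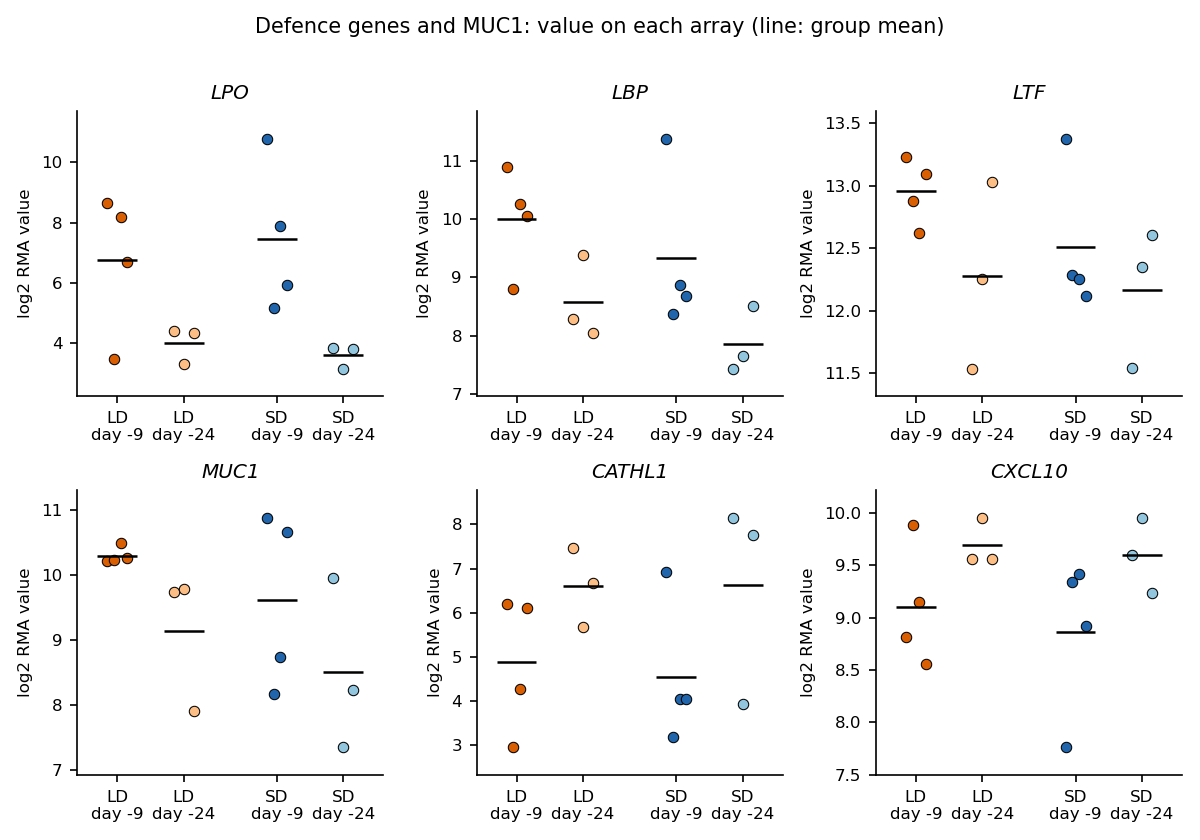
Value on each array (log2 RMA) of LPO, LBP, LTF, MUC1, CATHL1 and CXCL10 in LD day -9, LD day -24, SD day -9 and SD day -24, with a line at each group mean. LPO runs from 3.47 to 10.78 at day -9 and stays between 3.17 and 4.40 at day -24.

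The major caseins and beta-lactoglobulin were at the top of the scale on both days and hardly differed. CSN1S1 averaged 12.25 at day -9 and 12.27 at day -24, and the differences were -0.02 for CSN1S1, 0.03 for CSN2, 0.01 for CSN3 and -0.03 for PAEP. CSN1S2 differed by 0.37, mostly in SD (0.61, against 0.13 in LD). Of 7 milk protein genes 5 were above 0, 2 were higher at an unadjusted p under 0.05, and 3 were higher in both photoperiods, with a median of 0.03.

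The 2 were LALBA and GLYCAM1. LALBA, alpha-lactalbumin, is the regulatory subunit of lactose synthase. It read 13.13, 12.71, 13.01 and 12.92 in LD and 13.38, 12.50, 12.93 and 13.10 in SD at day -9, against 13.17, 12.30 and 11.71 in LD and 12.98, 11.81 and 12.22 in SD at day -24. Both days held arrays near 13, and the low values were on day -24. The difference was 0.59 (SE 0.22, adjusted p 0.607 in limma), with 0.55 in LD and 0.64 in SD. GLYCAM1, a mucin-like protein of milk, averaged 12.80 ± 0.32 at day -9 and 12.09 ± 0.62 at day -24, a difference of 0.71 (0.63 in LD, 0.79 in SD).

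Of 13 lactose and glucose genes measured, LALBA among them, 12 were above 0, LALBA alone reached an unadjusted p under 0.05, and 7 were higher in both photoperiods. The median was 0.15, with 0.29 in LD and 0.01 in SD, where 7 of 13 were above 0. With each array centred on its median 8 of 13 were above 0. The glucose transporter gene SLC2A1 differed by 0.23, and B4GALT1, the catalytic partner of LALBA, by 0.00.

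Milk fat genes had both signs. Of 32 measured, 21 were above 0, 4 were higher and 1 lower at an unadjusted p under 0.05, and the median was 0.11. FABP3, the fatty acid binding protein of mammary epithelium, averaged 12.79 ± 0.38 at day -9 and 12.07 ± 0.85 at day -24, a difference of 0.72, or 0.42 without SD day -24 replicate 2. LPL, the lipase that releases fatty acids from lipoproteins, differed by 0.73, and the lipoprotein receptor VLDLR by 0.49. LPL rested partly on SD day -9 replicate 1, which read 11.34, and differed by 0.55 without it. ACLY, which makes cytosolic acetyl-CoA, lay below every day -24 array on 7 of the 8 day -9 arrays and averaged 9.62 ± 0.11 at day -9 and 9.97 ± 0.18 at day -24, a difference of -0.34 (-0.41 in LD, -0.28 in SD). Among genes of new fatty acid synthesis and droplet secretion the values were FASN at -0.03, SCD at -0.01, ACACA at 0.14, XDH at -0.02, BTN1A1 at 0.19, PLIN2 at 0.06 and INSIG1 at -0.02. Without SD day -9 replicate 1, 1 milk fat gene was higher and 1 lower at an unadjusted p under 0.05.

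**Figure D5:**
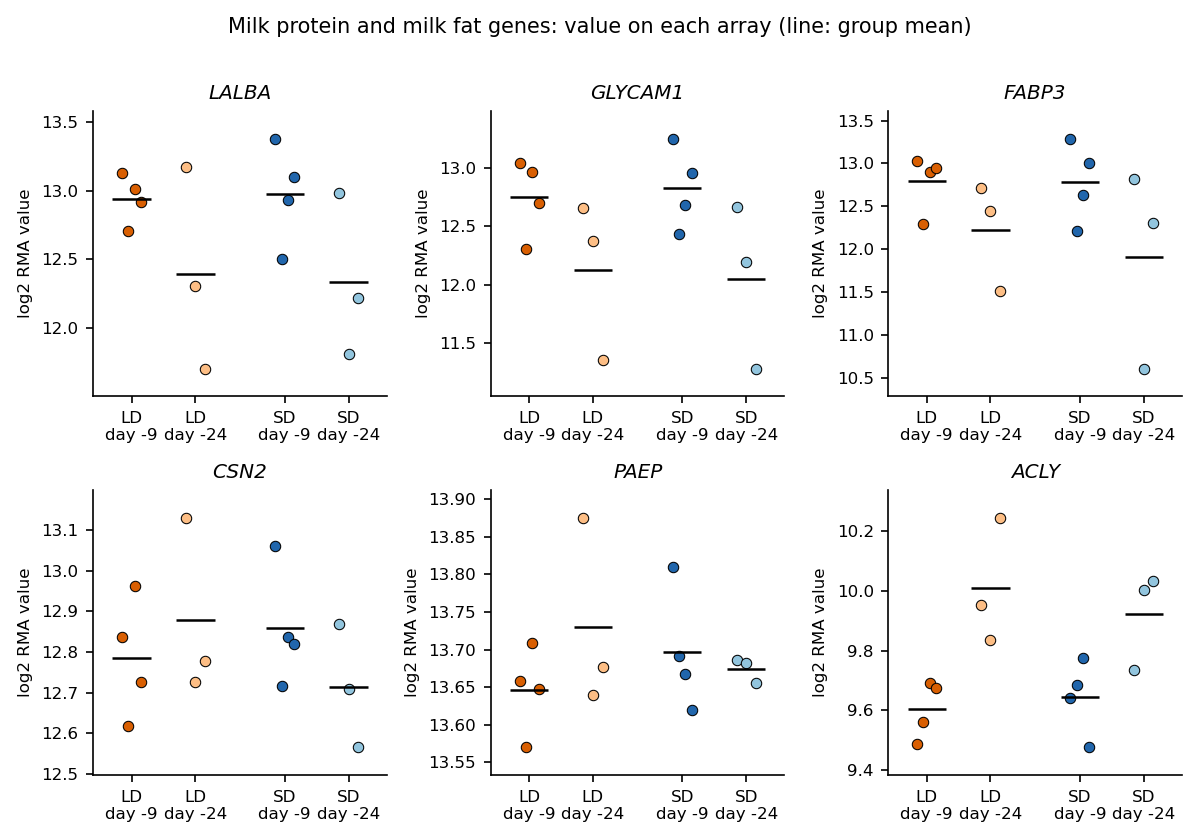
Value on each array (log2 RMA) of LALBA, GLYCAM1, FABP3, CSN2, PAEP and ACLY in LD day -9, LD day -24, SD day -9 and SD day -24, with a line at each group mean; each panel has its own scale. LALBA, GLYCAM1 and FABP3 have their lowest values at day -24, CSN2 and PAEP lie within narrow ranges on both days, and ACLY averages 9.62 at day -9 and 9.97 at day -24.

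Epithelial markers had both signs. Of 15 luminal markers 11 were above 0, with 3 higher and 1 lower at an unadjusted p under 0.05 (median 0.08). Without SD day -9 replicate 1 the SD median was -0.02, against 0.10 with it. KRT19, a keratin of luminal cells, averaged 12.67 ± 0.20 at day -9 and 12.36 ± 0.07 at day -24 (0.31, and 0.32 in LD, 0.30 in SD). The membrane mucin gene MUC1 differed by 1.13, at 9.95 ± 0.97 and 8.82 ± 1.13. KIT, a receptor of luminal progenitor cells and of mast cells, was lower by 0.44, and the keratin KRT18 differed by -0.11.

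Myoepithelial markers are genes of the contractile cells that eject milk. Of 11, 8 were above 0, 7 were higher in both photoperiods and 2 were higher at an unadjusted p under 0.05, with a median of 0.27. ACTA2, smooth muscle actin, ranged from 11.51 to 12.16 at day -9 and from 11.03 to 11.64 at day -24, a difference of 0.35. CNN1, calponin, differed by 0.70 and read 9.49 in SD day -9 replicate 1. The myoepithelial median was 0.16 without that array, and 0.04 in SD alone. With the luminal covariate 7 of 11 were above 0 and the median was 0.13.

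Matrix genes had no common direction. Of 43 matrix and protease genes 21 were above and 22 below 0, and those lower at an unadjusted p under 0.05 were 3 genes of basement membrane or its border: COL15A1 (-0.32), NID2 (-0.28) and LAMC1 (-0.19). Without SD day -9 replicate 1 the count was 1. The fibril collagens COL1A1 (0.04) and COL3A1 (-0.11) stayed near 0, and the proteoglycan LUM differed by -0.33. Of 20 endothelial markers 15 were above 0, and PLVAP alone reached an unadjusted p under 0.05. Of 14 adipocyte markers 13 were above 0 and 12 were higher in both photoperiods (median 0.28), at a median level of 4.87 over the arrays, and none reached an unadjusted p under 0.05. CIDEA, a lipid droplet protein that mammary epithelium also makes, differed by 1.09 among them.

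Involution and cell death genes leaned higher. Of 21, 20 were above 0 and 15 were higher in both photoperiods, with 2 higher at an unadjusted p under 0.05 and a median of 0.14 (0.19 in LD, 0.18 in SD). BAX, which permeabilises mitochondria in apoptosis, differed by 0.46, with 0.78 in LD and 0.14 in SD. The lysosomal protease gene CTSD differed by 0.28 in each photoperiod. SD day -9 replicate 1 had the highest mean of this list, 0.52 relative to all arrays, and without it 18 genes were above 0 and the median was 0.11, with 0.02 in SD, where 11 of 21 were above 0.

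Interferon response genes leaned lower. Of 23, 21 were below 0 and 14 were lower in both photoperiods, with a median of -0.17 (-0.14 in LD, -0.18 in SD) and 2 lower at an unadjusted p under 0.05. These were USP18, by -0.39 on the probe set of highest mean, and the chemokine CXCL10, by -0.66, at 8.98 ± 0.64 and 9.64 ± 0.27. Without SD day -9 replicate 1 there were 17 below 0. Antigen presentation genes had 14 of 18 below 0 and a median of -0.12, with 10 lower in both photoperiods. T and NK cell markers had 18 of 19 below 0 and a median of -0.08. Only 8 of these 19 were lower in both photoperiods, and 11 had opposite signs in LD and SD. Neither list had a gene at an unadjusted p under 0.05. Without SD day -9 replicate 1 the T and NK count below 0 was 12 of 19. With the luminal covariate that list had 8 of 19 below 0 and a median of 0.01.

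Cell cycle and DNA replication genes had the lowest median, -0.31, with 38 of 39 below 0 and 4 lower at an unadjusted p under 0.05. The 3 mast cell markers stood close to it at -0.30. With the luminal covariate the cell cycle median was -0.09 with 12 of 39 above 0, and with the 3′ minus 5′ value as a covariate it was -0.09 with 7 above 0, so that interferon response genes lay lower in both fits, at -0.13 and -0.20. The photoperiods had opposite medians, a difference that was not tested for the list: 12 of 39 were lower in both, the median was 0.14 in LD and -0.80 in SD, and 39 of 39 were below 0 in SD while 27 of 39 were above 0 in LD. SD day -9 replicate 1 stood far below the rest, with a mean of -1.53 relative to all arrays, and without it the median was -0.14 and 34 were below 0. In SD alone the median without that array was -0.42, with 39 of 39 below 0. The highest means of the list were on SD day -24 replicate 1 (0.76) and replicate 3 (0.72). Markers of division such as CCNB1, the mitotic cyclin, differed by 0.41 in LD and by -1.02 in SD, and over both by -0.30, or -0.03 without SD day -9 replicate 1.

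PCNA, the sliding clamp of DNA polymerase, differed alike in both photoperiods. It read 9.48, 9.32, 9.68 and 9.12 in LD and 8.85, 9.70, 9.70 and 9.44 in SD at day -9, against 9.82, 9.84 and 9.98 in LD and 10.03, 9.89 and 9.75 in SD at day -24. No day -9 array reached the lowest day -24 array. The difference was -0.48 (SE 0.13, adjusted p 0.586 in limma), with -0.48 in LD and -0.47 in SD, and -0.39 without SD day -9 replicate 1. CCNE2, the cyclin of S phase entry, differed by -0.70, with -1.09 in SD, and by -0.52 without SD day -9 replicate 1. The replicative helicase subunit MCM6 differed by -0.61, with -0.80 in SD, and by -0.41 without that array.

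Hormone and growth factor genes had both signs. Of 11 prolactin and growth hormone signalling genes 9 were above 0 (median 0.10), none at an unadjusted p under 0.05. The prolactin receptor PRLR differed by 0.08, with -0.44 in LD and 0.59 in SD, and is 1 of the 280 probe sets on which 2 arrays were low together, as is IGF1 (-0.01). STAT5B, a transcription factor downstream of the receptor, differed by 0.39 (with 1 array left out 0.21 to 0.68, both ends through arrays of SD day -24), and the alveolar factor ELF5, at 12.54 at day -9 and 12.52 at day -24, by 0.02. Of 14 insulin-like growth factor (IGF) axis genes 6 were above and 8 below 0 (median -0.03), with 3 higher and 6 lower in both photoperiods. Among those above 0 were the binding proteins IGFBP5 (0.52) and IGFBP2 (0.49). IGFBP5 read 9.80 in SD day -9 replicate 1, and differed by 0.37 without it. IGFBP2 differed by 0.32 without LD day -24 replicate 1. Its SD difference was 0.14, or -0.03 without SD day -9 replicate 1.

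Of 18 steroid response genes 3 were higher at an unadjusted p under 0.05, all of them enzymes: HSD11B1, which regenerates active glucocorticoid (0.44), SULT1A1, a sulfotransferase (0.28), and HSD17B4, a peroxisomal enzyme (0.21). The estrogen receptor gene ESR1 stayed near 3 on both days (0.02), and the progesterone receptor gene PGR differed by -0.23, or by -0.02 without LD day -24 replicate 1. PTHLH, which mobilises calcium for milk, differed by 0.84 with day -9 arrays between 5.77 and 9.50, and by 0.53 without SD day -9 replicate 1. The antibody carriers PIGR (0.10) and FCGRT (0.15) stayed near 0.

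Smaller sets added single genes. Among 20 fatty acid oxidation genes 16 were above 0 and 3 were higher at an unadjusted p under 0.05, with ACAA1 at 0.40 and ACADVL at 0.31. In both photoperiods 8 were higher, and the median was 0.20 in LD and -0.03 in SD, where 9 of 20 were above 0. Over all genes the median was 0.06 in LD and -0.03 in SD. Of 19 transport and tight junction genes 11 were above and 8 below 0, with 2 higher and 1 lower at an unadjusted p under 0.05. These were the junction scaffold TJP3 (0.33) and CLDN4 (0.25) against CLDN1 (-0.56, with -1.07 in LD and -0.05 in SD). Of 9 clock genes NFIL3, a repressor, differed by 0.52 and CRY1, a core negative regulator, by -0.31. Of 36 ER folding and secretory genes 17 were above and 19 below 0 (median -0.01). The 3 higher at an unadjusted p under 0.05 were SSR3 (0.29), DNAJC3 (0.28) and SRPRA (0.26). None remained at an unadjusted p under 0.05 without SD day -9 replicate 1. Ribosomal protein genes had 38 of 56 below 0 with a median of -0.02. Oxidative phosphorylation genes had 43 of 57 above 0, but 10 of 57 were higher in both photoperiods. The photoperiods had opposite medians, with 52 of 57 above 0 in LD (median 0.15) and 47 of 57 below 0 in SD (median -0.07). That contrast was not tested for the list.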

How the data were processed

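Mammary biopsies from 14 samples were hybridised to Affymetrix bovine arrays; per the labels' protocols, RNA had an integrity number above 7.0 and 2 µg of total RNA was turned into biotinylated cRNA from an oligo(dT) primer. The authors deposited 1 log2 value per probe set and array, made with RMA per the submitters' processing notes; software, version and settings are not given in the sources used here. No step was undone or repeated. Of 24128 probe sets, 112 array controls were left out of the tests. Of the 24016 tested, 13292 carried 1 gene symbol, 86 several and 10638 none in the platform annotation (9155 genes); 13263 were found by gene ID in the RefSeq table (assembly ARS-UCD2.0, used for names alone), and 0 symbols needed updating.

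Day -9 minus day -24 was fitted with limma 3.58.1 in R 4.3.3 on photoperiod plus day, with Benjamini-Hochberg adjustment over all 24016 probe sets and a threshold of 0.05. LD, SD and their difference came from a fit of the 4 group means. Named genes were the 15 higher and 15 lower of smallest p with 1 symbol and the same sign in LD and SD, up to 3 genes of smallest p per list, landmark milk, hormone and tissue genes, and a few listed by size. The comparison, the lists and the members were chosen with earlier results of these data known. Alternatives changed the block, prior variance, array weights, normalization, filter (mean of at least 5 or 7), covariates and arrays used.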

Additional observations from a re-analysis of the deposited data

Results flagged for a closer look

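In groups of 4 arrays, 24 of 234 tests over 117 named probe sets (10.3%) had 1 array far from the other 3, where chance gives about 1 in 20; 13 were on SD day -9 replicate 1 and 6 on LD day -9 replicate 3. Groups of 3 cannot be tested this way, so all of these are day -9 arrays.

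SD day -9 replicate 1 stood above the other SD day -9 arrays on defence genes. It read 11.38 for LBP (others 8.37 to 8.87), 13.38 for LTF (12.12 to 12.29), 9.43 for CP (7.43 to 7.55), 10.87 for CFB (7.80 to 8.25) and 8.59 for LAP (5.11 to 5.51). It was also high for the lipase LPL at 11.34 (9.70 to 9.85), IGFBP5 at 9.80 (8.52 to 8.61), CNN1 at 9.49 (7.73 to 8.02), PLVAP at 6.21 (5.44 to 5.55) and CYP11A1 at 7.79 (4.97 to 5.23). It was low for COL1A1 at 11.42 (12.11 to 12.25), LUM at 10.15 (10.40 to 10.44) and IGF1 at 5.30 (5.95 to 6.05).

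LD day -9 replicate 3 read 7.35 for STATH (others 6.12 to 6.26), 10.49 for MUC1 (10.22 to 10.25) and 6.63 for ANAPC5 (6.42 to 6.45). It was low for KRT19 at 12.33 (12.72 to 12.79), USP18 at 5.41 (5.65 to 5.68) and LOC613444 at 7.33 (7.73 to 7.78).

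XDH was low on replicate 2 of both day -9 groups, at 11.89 in LD (12.10 to 12.14) and 11.73 in SD (12.04 to 12.06). IGF1 was low on LD day -9 replicate 4 at 4.33 (6.23 to 6.53). SD day -9 replicate 4 was high for HNRNPH2 at 9.18 (9.08 to 9.09) and for HSD17B4 at 10.34 (10.17 to 10.18).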

How the results depend on the processing

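Beside the fit described, 29 alternatives were run. The count at an adjusted p of 0.05 (limma) was 0 in all but 2 of them: 2 probe sets without the photoperiod block and 2 with a mean of at least 7, both times CCN1 and a probe set without a symbol. The count at an unadjusted p under 0.05 was 950 with a mean of at least 7, where 10632 probe sets were tested, and 1204 with the luminal marker mean as a covariate, and between 1390 and 2677 when 1 array was left out. The correlation of LD and SD differences lay between -0.09 and 0.34 over the same omissions, was 0.36 without the 2 arrays that were low together (the low pair) and -0.05 without the 2 arrays of lowest score on the first principal component (SD day -9 replicate 1 with LD day -24 replicate 1, the principal component pair). The replicate block gave 0 calls and 1726 probe sets at an unadjusted p under 0.05 (limma, smallest adjusted p 0.691); deviations of same-numbered arrays correlated at 0.33, 0.19 and -0.31 in LD and 0.04, 0.22 and 0.25 in SD, and 3 of 6 day -24 arrays correlated best with their own number, which does not meet the rule that every pair exceed 0.1, so the arrays were treated as sharing only a number; the labels do not tell whether they are paired. Median centring moved the median of all differences by -0.04. No described gene that lay beyond 0.31 of 0 changed sign in any alternative. Signs changed as follows, the cause not being tested. With the replicate block the differences were -0.019 for B4GALT1, -0.0014 for ACACA, 0.21 for IGF1 and -0.045 for ESR1. With array weights they were 0.010 for CSN1S1, -0.0028 for B4GALT1, 0.0011 for XDH, 0.13 for IGF1 and -0.0027 for ESR1. Quantile normalization gave -0.0014 for CSN3 and -0.0083 for B4GALT1. Median centring gave -0.018 for CSN2, -0.032 for CSN3, -0.043 for B4GALT1, -0.022 for ELF5, -0.028 for ESR1 and -0.0067 for COL1A1. Without the low pair values were -0.0058 for CSN2, 0.047 for SCD and -0.030 for ESR1, and without the principal component pair 0.034 for CSN1S1, -0.0091 for B4GALT1, 0.033 for FASN, 0.040 for XDH and 0.18 for IGF1. The luminal covariate gave -0.012 for B4GALT1, 0.042 for FASN, 0.0011 for SCD, 0.022 for XDH, 0.27 for IGF1 and 0.058 for CCNB1. The adipocyte covariate gave -0.055 for CSN2, -0.068 for CSN3, -0.048 for B4GALT1, -0.10 for ACACA, -0.016 for BTN1A1, -0.053 for PLIN2, -0.070 for PRLR, -0.031 for ELF5, -0.014 for ESR1, 0.25 for KRT18 and -0.027 for ADIPOQ. ADIPOQ is itself an adipocyte marker, so that covariate draws its own value toward 0. The 3′ minus 5′ covariate gave -0.028 for CSN2, 0.067 for FASN, -0.055 for PLIN2, 0.16 for INSIG1, -0.54 for PRLR, -0.029 for ELF5, -0.0025 for ESR1, -0.00097 for PIGR, 0.39 for KRT18 and -0.0052 for ADIPOQ. With 1 array left out the ranges were -0.065 to 0.076 for CSN1S1, -0.022 to 0.10 for CSN2, -0.027 to 0.068 for CSN3, -0.052 to 0.0072 for PAEP, -0.028 to 0.032 for B4GALT1, -0.090 to 0.029 for FASN, -0.076 to 0.040 for SCD, -0.052 to 0.054 for XDH, -0.023 to 0.14 for PLIN2, -0.12 to 0.12 for INSIG1, -0.019 to 0.053 for ELF5, -0.17 to 0.28 for PRLR, -0.30 to 0.25 for IGF1, -0.021 to 0.079 for ESR1, -0.047 to 0.14 for COL1A1 and -0.30 to 0.068 for KRT18. List medians of innate defence (0.13 to 0.60), cell cycle (-0.51 to -0.09), interferon response (-0.22 to -0.09), involution (0.03 to 0.21) and myoepithelial markers (0.13 to 0.38) kept their sign in these 29 and with the mean over all probe sets of a gene, 30 alternatives in all. Of the 37 lists, 20 changed sign in at least 1 alternative, among them T and NK cells (5 alternatives, highest 0.04), milk proteins (4, lowest -0.05), and with 1 alternative each milk fat (-0.02), luminal (-0.05), prolactin signalling (-0.03) and endothelial (-0.01). Of 82 described probe sets with a difference of at least 0.3 in size, 8 moved over 1.5 times when 1 array was left out: FABP3, STAT5B, PTHLH, LTF, CCNB1, DEFB10, IGFBP2 and CXCL13. Values for SD alone without SD day -9 replicate 1 were added after seeing the data.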

Other observations

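Sorted by size of difference, with the same sign in LD and SD, 1 symbol and an unadjusted p under 0.05, there were 1012 genes, of which 25 differed by 1 or more (19 higher and 6 lower at day -9). This choice was made after the values were seen, and adjusted p lay between 0.586 and 0.622 for the genes that follow (limma). Outside the lists described, LOC100847724 averaged 8.78 at day -9 and 6.93 at day -24 (1.86), and STATH, which encodes the secreted calcium-binding peptide statherin, averaged 6.24 and 4.40 (1.83). CYP11A1, the enzyme that opens steroid synthesis by cleaving the cholesterol side chain, averaged 6.11 and 4.62 (1.50), with 2.13 in LD and 0.87 in SD, or 0.19 in SD without SD day -9 replicate 1. TECTB, a gene best known for a matrix protein of the inner ear, averaged 7.16 and 5.72 (1.44).

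Immune signals outside the interferon list had both signs. IL33, an alarm cytokine of epithelium, averaged 7.43 at day -9 and 6.21 at day -24 (1.22), and CHI3L1, a secreted chitinase-like glycoprotein, averaged 10.60 and 9.48 (1.12). CHI3L1 differed by 1.34 in LD and by 0.89 in SD, or 0.12 in SD without SD day -9 replicate 1. CXCL13, the chemokine that draws B cells, averaged 4.65 and 5.84 (-1.19, or -0.79 without SD day -24 replicate 2). ACSM1, a mitochondrial acyl-CoA synthetase, averaged 8.20 and 7.06 (1.14).

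A probe set without a gene symbol had the second smallest p of all. It read 8.37, 8.46, 8.38 and 8.34 in LD and 8.34, 8.39, 8.33 and 8.37 in SD at day -9, against 8.75, 8.72 and 8.79 in LD and 8.77, 8.93 and 8.81 in SD at day -24. The days did not overlap, and the difference was -0.42, with -0.36 in LD and -0.48 in SD and an adjusted p of 0.109 (limma).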
